A study of Mus musculus with 8 samples.

Results

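PPAR targets and fatty acid oxidation genes were examined in the cortex of APP/PS1 mice as a set of 34 genes, taken by gene symbol from a list of known pathway members, out of 22869 genes in the count table. All 34 were present, each taken at its transcript row with the highest mean count, and all 34 passed the low-count filter that left 16069 genes. The 8 libraries were RNA sequencing of brain cortex from APP/PS1 transgenic mice, which form amyloid plaques, on the C57BL/6 strain. The treated group is 4 libraries of mice that received bexarotene, which activates retinoid X receptors, and the controls are 4 libraries of mice that received 0.2 mg/kg glycerol, named vehicle below. Both groups carry the APP/PS1 genotype, so no library shows the genes without the transgenes. The labels leave out how much bexarotene was given and for how long, the age and sex of the mice, the promoter of the transgenes, and whether a library is 1 animal or a pool. P-values therefore reflect library-to-library spread alone, which may be technical.

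Peroxisome proliferator-activated receptors (PPARs) are nuclear receptors for fatty acids that bind DNA as partners of retinoid X receptors, and such pairs can be activated through either partner. Their best known targets carry fatty acids into cells, store them in lipid droplets, pass them into mitochondria on carnitine and break them down. There, acyl-CoA dehydrogenases open each round of beta-oxidation, and hydratase, hydroxyacyl-CoA dehydrogenase and thiolase activities complete it. In the brain, where neurons burn mostly glucose and lactate, fatty acid oxidation is known mainly from astrocytes.

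The libraries held 42413825 to 76542067 counts summed over all rows of the table. A first principal component with 45.3% of the variance (genes with a mean log2 CPM above 2) set replicates 1 and 3 of either group apart from replicates 2 and 4. Vehicle replicate 3 was the least apart, at -4.56. The other libraries numbered 1 and 3 were at -24.1 to -19.8, and replicates 2 and 4 at 11.9 to 24.2. Xist, expressed from the inactive X chromosome of females, was at 84.7 to 218 CPM (read counts scaled by library size) in the 4 bexarotene libraries, beside 9.81 to 88.5 CPM of 4 Y-linked genes. Vehicle replicates 1 and 3 had Xist with almost no Y-linked counts, and vehicle replicates 2 and 4 the reverse, so these sex-linked transcripts differed between the groups and among the vehicle replicates, and their part in the results was not tested. All 10 neuron markers were counted in every library, with sums of 4366 to 6026 CPM under bexarotene and 5152 to 5939 CPM under vehicle. In bexarotene libraries the astrocyte list summed to 4191 to 4747 CPM, the oligodendrocyte list to 1555 to 2509 CPM and the endothelial list to 331 to 394 CPM. In vehicle libraries the same lists summed to 4037 to 5330 CPM, 1220 to 2723 CPM and 286 to 373 CPM. Microglial markers, with 10 of 10 positive log2 fold changes, summed to 576 to 768 CPM under bexarotene and 447 to 567 CPM under vehicle. Bexarotene libraries held 259 to 1142 CPM of striatum markers, 80.3 to 1462 CPM of choroid plexus and ependyma markers and 42.1 to 128 CPM of liver transcripts, against 203 to 609 CPM, 20.7 to 46.9 CPM and 0.893 to 123 CPM in vehicle libraries. Blood transcripts were at 2.82 to 24 CPM under bexarotene and 5.50 to 10.6 CPM under vehicle.

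No gene of the set passed the threshold of an adjusted p below 0.05 in edgeR's quasi-likelihood test, in either direction. Over all 16069 genes, 0.00622% were called higher, which is 1 gene, and 0% lower. DESeq2 also called 0 of the 34, and 89 genes in all. At an unadjusted p below 0.05, 6 of the 34 were higher under bexarotene and 0 lower, against a background of 4.88% higher and 3.89% lower. Counting either direction, the background was 8.77%. These 6 were Acadl, Acadm, Acads, Acaa2, Hadha and Ucp3. With the replicate number as a block, 6 were higher and 2 lower, against 5.53% and 4.82% of all genes: Hadha left the higher ones, Cyp4a10 joined them, and Ppargc1a and Plin4 were the lower ones. In 5 of the 6 genes that were higher without the block, all but Acaa2, each bexarotene library lay above each vehicle library. That is 14.7% of the set, against 3.61% of all genes, and the converse was seen in 0 members against 2.16% of all genes. The log2 fold change was above 0 in 27 members, 79.4%, against 50.2% of all genes, and its median was 0.12, against 0.00 over all genes. In bulk cortex, a change in the number of cells of a type and a change in RNA per cell cannot be told apart.

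The positive values were not spread evenly over the libraries. Within replicates 1 and 3 the median log2 difference of the 34 genes was 0.21, with 25 above 0. Within replicates 2 and 4 it was 0.04, with 20 above 0. Over all genes the same medians were 0.03 and 0.01. With an offset that removes each library's trend on transcript length and GC content, the median log2 fold change of the set was 0.07.

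**Figure D1:**
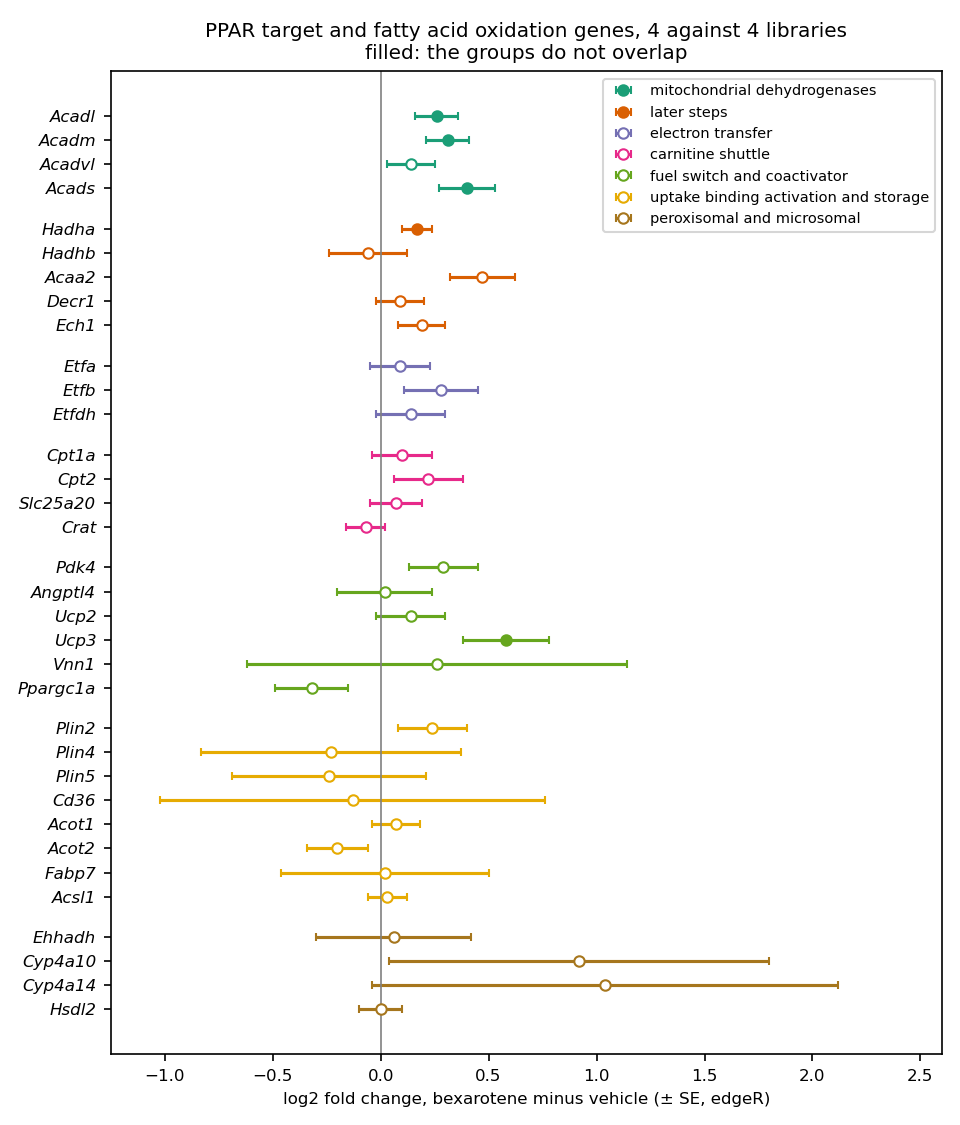
Log2 fold change of each of the 34 genes, bexarotene minus vehicle, with its standard error from edgeR (4 libraries a group), grouped by role. Filled points mark the 5 genes whose groups do not overlap, 3 of them acyl-CoA dehydrogenases; the values run from -0.32 (Ppargc1a) to 1.04 (Cyp4a14).

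The acyl-CoA dehydrogenases, which take the first electrons from an acyl-CoA and differ in the chain length they accept, held 3 of the 5 genes without overlap. Acadm, the medium-chain enzyme, had 27.8, 23.6, 24.8 and 23.7 CPM in bexarotene replicates 1 to 4, against 19.3, 19.7, 18.8 and 22.9 CPM in vehicle replicates 1 to 4. The lowest bexarotene library thus stood just above vehicle replicate 4, and the other vehicle libraries lay close together below it. The fitted log2 fold change reached 0.31 ± 0.10 (SE, 4 libraries a group), with an unadjusted p of 0.00953 and an edgeR adjusted p of 0.459. Acads, the short-chain enzyme, had 8, 6.37, 8.18 and 7.14 CPM in bexarotene replicates 1 to 4, against 6.09, 5.46, 5.13 and 5.86 CPM in vehicle replicates 1 to 4. Bexarotene replicates 1 and 3 were its highest libraries. The log2 fold change of Acads was 0.40 ± 0.13, with an adjusted p of 0.477. Acadl, the long-chain enzyme, had 40.6, 31.6, 36.2 and 31.5 CPM in bexarotene replicates 1 to 4, against 27.3, 29.9, 31.4 and 28.4 CPM in vehicle replicates 1 to 4. Here bexarotene replicates 2 and 4 exceeded vehicle replicate 3 only narrowly. As a log2 fold change this came to 0.26 ± 0.10, with an adjusted p of 0.55. Acadvl, the very-long-chain enzyme of the inner membrane, was at a mean of 34.3 ± 3.15 CPM with bexarotene and 31.2 ± 3.82 CPM with vehicle (SD, n = 4). Its groups overlapped, with vehicle replicate 2 at 36.8 CPM and both bexarotene replicate 2 and vehicle replicate 4 at 30.6 CPM.

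The log2 difference was larger within replicates 1 and 3 than within replicates 2 and 4 for Acadm, Acads and Acadl: 0.47 and 0.16 for Acadm, 0.53 and 0.25 for Acads, 0.39 and 0.11 for Acadl. Bexarotene replicates 1 and 3 were also the highest 2 libraries for the striatum markers (1142 and 838 CPM, against 203 to 609 CPM in the other 6), all 8 of which had a positive log2 fold change and none of which was at 0. Their part in these values was not tested. With the length and GC offset the log2 fold changes were 0.27 for Acadm, 0.30 for Acads and 0.24 for Acadl.

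Of the 5 genes of the later steps, 1 showed no overlap between the groups. Hadha, the alpha subunit of the mitochondrial trifunctional protein, had 54.0, 48.7, 50.8 and 46.9 CPM in bexarotene replicates 1 to 4, against 46.0, 42.3, 45.4 and 43.9 CPM in vehicle replicates 1 to 4. Every bexarotene library lay above every vehicle library, most narrowly bexarotene replicate 4 above vehicle replicate 1. On the log2 scale the difference was 0.17 ± 0.07, at an edgeR adjusted p of 0.562, and 0.20 within replicates 1 and 3 against 0.15 within replicates 2 and 4. Hadhb, the beta subunit of the same complex and given in full after its values were seen, had 5.73, 6.15, 6.48 and 5.55 CPM under bexarotene and 5.48, 4.89, 6.08 and 8.43 CPM under vehicle, with the highest value in vehicle replicate 4. In edgeR the log2 fold change stood at -0.06 ± 0.18. The genes of both subunits stand head to head on mouse chromosome 5, with starts 273 bases apart in the RefSeq table (GRCm38.p6). Whether reads shared with other copies of these genes were dropped in counting was not tested, so their levels are not compared.

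Acaa2, the mitochondrial thiolase that closes a round, had 27.7, 22.7, 25.5 and 17.9 CPM in bexarotene replicates 1 to 4, against 13.4, 18.5, 17.8 and 17.9 CPM in vehicle replicates 1 to 4. Bexarotene replicate 4 lay inside the vehicle range, and vehicle replicate 1 was well below the other vehicle libraries. Bexarotene minus vehicle gave a log2 value of 0.47 ± 0.15, with an adjusted p of 0.475 and an exact permutation p of 0.0571. It was 0.78 within replicates 1 and 3 but 0.15 within replicates 2 and 4. Decr1, the dienoyl-CoA reductase needed for polyunsaturated chains, was at a mean of 14.7 ± 0.754 CPM with bexarotene and 13.9 ± 1.88 CPM with vehicle (SD, n = 4). Ech1, which shifts double bonds in such chains, was at 36.5 ± 5.53 CPM with bexarotene and 32.0 ± 2.02 CPM with vehicle and had the highest level per kilobase of the 34 genes, 27.0 CPM.

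**Figure D2:**
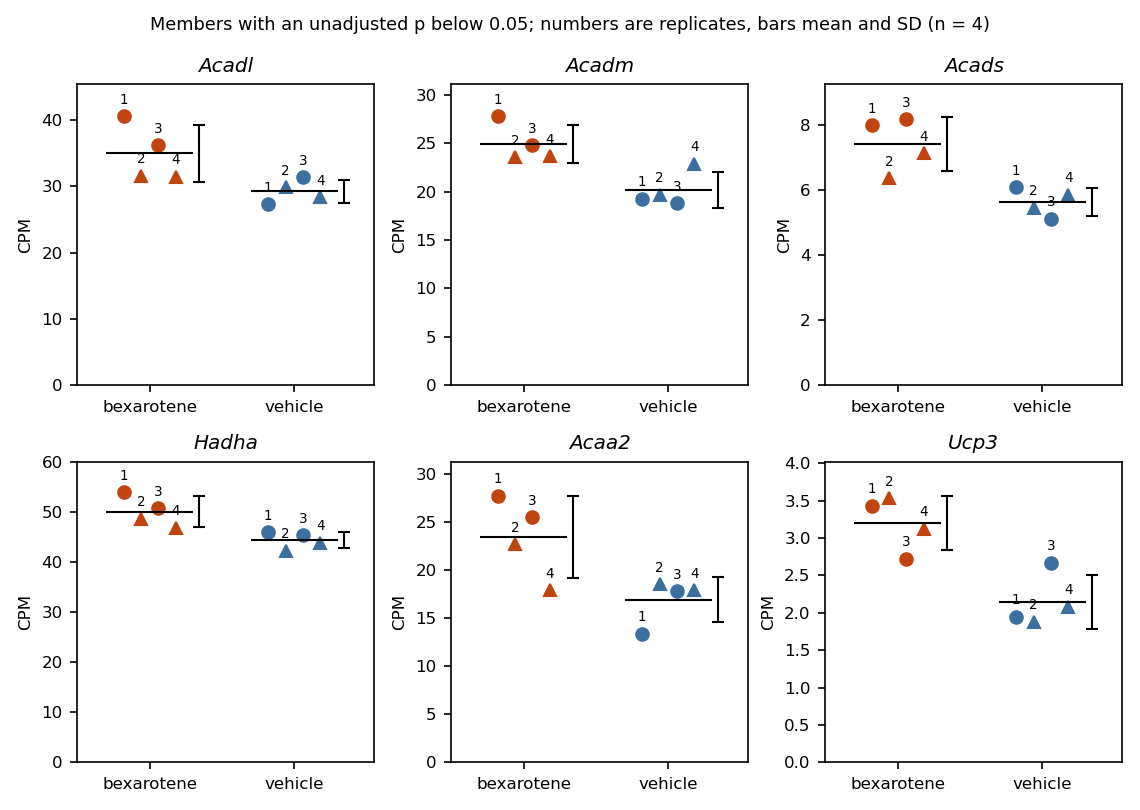
CPM of the 6 genes with an unadjusted p below 0.05 in each of the 4 bexarotene and 4 vehicle libraries. Circles are replicates 1 and 3, triangles replicates 2 and 4, horizontal lines group means and bars SD; in all panels but Acaa2 the lowest bexarotene library is above the highest vehicle library.

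Electrons from the dehydrogenases pass to the electron transfer flavoprotein, whose subunits are encoded by Etfa and Etfb, and on to ubiquinone through Etfdh. Etfb had 28.5, 18.1, 26.8 and 19.9 CPM in bexarotene replicates 1 to 4, against 16.8, 17.8, 17.8 and 24 CPM in vehicle replicates 1 to 4. The groups overlapped through vehicle replicate 4. Its log2 fold change of 0.28 ± 0.17 had an adjusted p of 0.696, and was 0.67 within replicates 1 and 3 but -0.13 within replicates 2 and 4. The length and GC offset brought the value to 0.08. Etfa, at a mean of 14.6 ± 1.45 CPM with bexarotene and 13.6 ± 2.32 CPM with vehicle, and Etfdh, at 19.2 ± 1.67 CPM with bexarotene and 17.4 ± 3.73 CPM with vehicle (SD, n = 4), overlapped as well.

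The carnitine shuttle brings long chains across the mitochondrial membranes. Cpt1a, its rate-setting outer enzyme, had 27.8, 27.4, 24.3 and 29.1 CPM in bexarotene replicates 1 to 4, against 22.8, 22.4, 22.6 and 33.3 CPM in vehicle replicates 1 to 4. Vehicle replicate 4 was the highest of all 8 libraries, and the other 3 vehicle libraries were below every bexarotene library. The estimated log2 difference amounted to 0.10 ± 0.14, with an adjusted p of 0.89 and an exact permutation p of 0.4. Without vehicle replicate 4 it was 0.27. Cpt2, the inner enzyme, had 7.25, 7.08, 5.34 and 6.67 CPM under bexarotene and 5.22, 5.31, 5.13 and 7.02 CPM under vehicle. Vehicle replicate 4 was again the highest of its group, here below bexarotene replicates 1 and 2, and the other 3 vehicle libraries were below every bexarotene library. The fitted log2 fold change reached 0.22 ± 0.16, with an adjusted p of 0.763, and 0.34 without vehicle replicate 4. Slc25a20, the carnitine-acylcarnitine translocase, was at 9.32 ± 1.06 CPM with bexarotene and 8.85 ± 0.575 CPM with vehicle, and Crat, the carnitine acetyltransferase, at 36.8 ± 3.67 CPM with bexarotene and 38.6 ± 2.36 CPM with vehicle (SD, n = 4).

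In a check added after seeing the data, leaving out vehicle replicate 4 raised the number of genes without overlap to 9 of 34, against 5.42% of all genes higher under bexarotene in those 7 libraries. The 4 that joined were Cpt1a, Cpt2, Plin2 and Etfb, named after their values were seen. With any other library left out, the number was 5 or 6, against 3.99% to 6.56% of all genes higher under bexarotene. The 5 genes of all 8 libraries were among the genes without overlap each time.

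**Figure D3:**
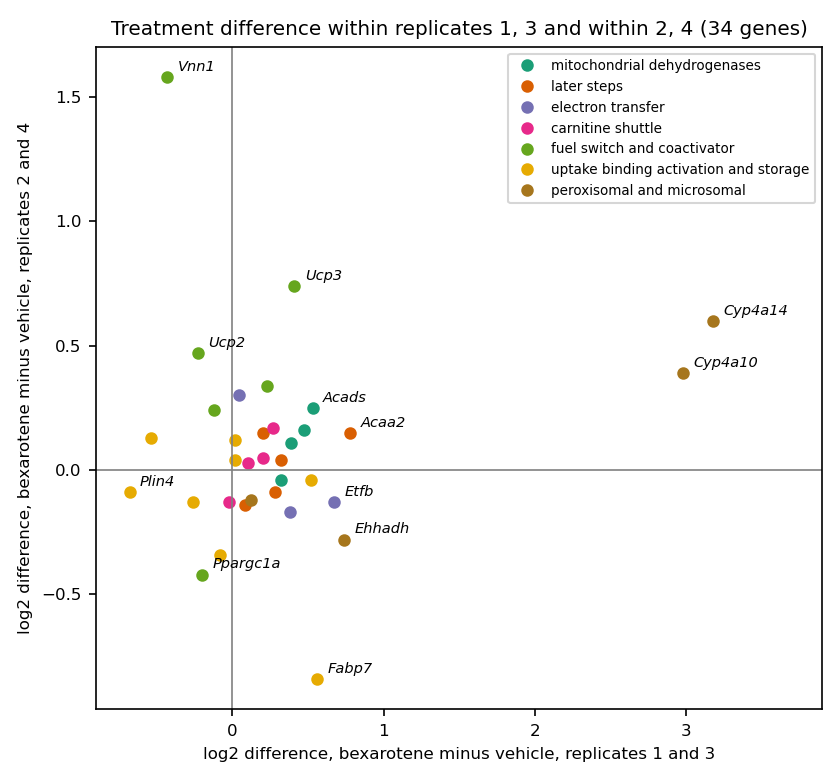
Log2 difference in CPM, bexarotene minus vehicle, within replicates 1 and 3 (horizontal axis) and within replicates 2 and 4 (vertical axis), for the 34 genes, coloured by role. Both values are above 0 in 16 genes and below 0 in 5; Ucp3 and Acads are above 0 on both axes, while Etfb, Ehhadh and Fabp7 are above 0 on the horizontal axis only.

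Among the genes that switch fuel use, Ucp3, a mitochondrial carrier best known from muscle and a PPAR target, stood apart. It had 3.43, 3.53, 2.72 and 3.12 CPM in bexarotene replicates 1 to 4, against 1.95, 1.88, 2.67 and 2.08 CPM in vehicle replicates 1 to 4. No vehicle library reached a bexarotene library, although bexarotene replicate 3 was only just above vehicle replicate 3. The counts behind these values ran from 186 to 263 under bexarotene and from 83 to 149 under vehicle. As a log2 fold change this came to 0.58 ± 0.20, a fitted ratio of 1.49, with an unadjusted p of 0.016 and an edgeR adjusted p of 0.484. It was 0.41 within replicates 1 and 3 but 0.74 within replicates 2 and 4, and 0.52 with the length and GC offset. Muscle and fat transcripts, at 7.99 to 9.93 CPM in bexarotene libraries and 7.29 to 14.1 CPM in vehicle libraries, overlapped. The largest part of the sum was Acta1, at 6.53 to 11.9 CPM. Log2 fold changes of the 3 tested genes of that list were 0.50 for Ckm, -0.19 for Acta1 and -0.51 for Myh1. The adipocyte genes Adipoq, Cfd, Fabp4 and Plin1 of the list were each at 0 in at least 1 library. The part of muscle transcripts in the Ucp3 values was not tested.

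Ucp2, the related carrier found in many cell types including microglia, had 40.5, 41.0, 36.6 and 59.4 CPM in bexarotene replicates 1 to 4, against 46.5, 37.5, 43.8 and 33.7 CPM in vehicle replicates 1 to 4. Bexarotene replicate 4 was the highest of the 8 libraries, and the groups otherwise overlapped. On the log2 scale the difference was 0.14 ± 0.16 (adjusted p = 0.871 in edgeR's test) and -0.03 without that library. The same library had the highest sum of the 10 microglial markers, 768 CPM, and whether it contributes was not tested. Ucp2 and Ucp3 transcripts shared 75.5% of 919 aligned bases, with no identical run over 24 bases.

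Pdk4, the kinase that shuts off pyruvate dehydrogenase and a standard readout of PPAR activity, had 10.5, 11.9, 10.9 and 15.7 CPM in bexarotene replicates 1 to 4, against 10.7, 11.2, 7.76 and 10.5 CPM in vehicle replicates 1 to 4. Bexarotene replicate 4 was the highest library and vehicle replicate 3 the lowest, and the other 6 lay between 10.5 and 11.9 CPM. In edgeR the log2 fold change stood at 0.29 ± 0.16 (adjusted p = 0.672, exact permutation p = 0.171), and 0.15 without bexarotene replicate 4. Angptl4, a secreted inhibitor of lipoprotein lipase and another sensitive PPAR target, had 6.38, 5, 5.14 and 6.46 CPM under bexarotene and 8.51, 4.50, 4.57 and 5.13 CPM under vehicle. Vehicle replicate 1 was its highest library. Bexarotene minus vehicle gave a log2 value of 0.02 ± 0.22 (adjusted p = 0.993), and 0.28 without vehicle replicate 1. Ppargc1a, the coactivator PGC-1alpha, had 26.4, 37.8, 29.0 and 29.1 CPM in bexarotene replicates 1 to 4, against 27.3, 47.2, 36.9 and 41.6 CPM in vehicle replicates 1 to 4. With its log2 fold change of -0.32 ± 0.17 (adjusted p = 0.64, exact permutation p = 0.2) it was the lowest of the set, and it was -0.17 with the length and GC offset. Vnn1, a pantetheinase induced by PPARalpha in liver, had 0 to 22 counts a library, and no difference was detectable at this depth.

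The promoters of Acadm, Ucp3 and Cd36 are shown as examples that hold a match marked below. Acadm and Ucp3 are among the genes without overlap, and Cd36 divided the replicates of both groups, as its values further on show. Each runs from 250 bases before to 50 bases after the start in the RefSeq table (GRCm38.p6), 5′ to 3′ on the strand of the gene. Capitals mark the receptor hexamer AGGTCA on either strand, or its direct repeat AGGTCANAGGTCA with at most 2 mismatches, which PPAR-RXR pairs bind.
Acadm, chr3:153944594-153944893, minus strand: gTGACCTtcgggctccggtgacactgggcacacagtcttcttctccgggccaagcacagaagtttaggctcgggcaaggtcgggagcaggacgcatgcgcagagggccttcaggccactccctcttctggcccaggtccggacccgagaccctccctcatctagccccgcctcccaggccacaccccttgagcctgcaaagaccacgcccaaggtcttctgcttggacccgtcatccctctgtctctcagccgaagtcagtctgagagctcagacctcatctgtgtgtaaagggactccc
Ucp3, chr7:100472741-100473040, plus strand: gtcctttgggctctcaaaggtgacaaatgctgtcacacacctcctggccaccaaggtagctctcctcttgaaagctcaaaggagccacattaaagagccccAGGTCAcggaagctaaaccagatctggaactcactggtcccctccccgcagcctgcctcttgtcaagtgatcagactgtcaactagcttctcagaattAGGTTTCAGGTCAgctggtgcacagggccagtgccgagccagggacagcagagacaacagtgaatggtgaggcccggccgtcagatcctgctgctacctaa
Cd36, chr5:17835847-17836146, minus strand: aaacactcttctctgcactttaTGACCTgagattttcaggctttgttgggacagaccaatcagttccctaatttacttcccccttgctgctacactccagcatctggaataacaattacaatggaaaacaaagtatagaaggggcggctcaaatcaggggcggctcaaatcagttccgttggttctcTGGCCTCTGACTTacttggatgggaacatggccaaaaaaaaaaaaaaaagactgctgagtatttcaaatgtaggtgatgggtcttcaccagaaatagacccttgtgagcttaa
In Acadm the hexamer, read as TGACCT on the opposite strand, begins 249 bases before the start. In Ucp3 hexamers begin 149 and 44 bases before it, and the second lies inside a 2-mismatch repeat, AGGTTTCAGGTCA. In Cd36 both the hexamer, 228 bases before the start, and the repeat, 63 bases before it, lie on the opposite strand. Of the 27 genes of the set with an entry in the table, 8 held the hexamer, 5 the repeat with up to 2 mismatches and 0 the exact repeat, against 18.1%, 4.4% and 0.0481% of 27025 genes. The 8 with the hexamer were Acadm, Acadvl, Cd36, Cpt1a, Fabp7, Plin2, Plin5 and Ucp3. The 5 with the repeat were Cd36, Etfa, Plin2, Slc25a20 and Ucp3. Acadl, Acads and Hadha, which are also genes without overlap, held neither the hexamer nor the repeat. Plin4, which also divided the replicates of both groups, likewise held neither. The repeat with mismatches was chosen after seeing the data, and a match describes letters in this window, not a bound site.

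Genes of fatty acid uptake, binding and storage held no gene without overlap, and 4 of 8 had a log2 fold change above 0. Cd36, the fatty acid translocase and scavenger receptor, had 3.24, 0.39, 3.59 and 0.587 CPM in bexarotene replicates 1 to 4, against 3.9, 0.896, 3.35 and 0.419 CPM in vehicle replicates 1 to 4. Replicates 1 and 3 of both groups were high and replicates 2 and 4 of both groups low, with a 10-fold range over the 8 libraries. Replicates 1 and 3 exceeded replicates 2 and 4 by 2.75 on the log2 scale in bexarotene libraries and by 2.50 in vehicle libraries, against a treatment difference of -0.13 ± 0.89 (adjusted p = 0.988 in edgeR's test). Xist was at 180, 84.7, 116 and 218 CPM in bexarotene replicates 1 to 4, against 248, 0.861, 307 and 0.62 CPM in vehicle replicates 1 to 4. It was thus high in the same libraries as Cd36 in the vehicle group, while in the bexarotene group its highest library was replicate 4, where Cd36 was low. The 10 endothelial markers, none at 0, summed to 394, 331, 337 and 391 CPM in bexarotene libraries and 321, 373, 286 and 359 CPM in vehicle libraries. The part of sex-linked differences or of endothelial cells in the Cd36 values was not tested.

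Plin4, a lipid droplet coat protein and PPARgamma target in fat, given in full after its values were seen, split the libraries the other way. It had 6.03, 24.5, 9.83 and 33.0 CPM in bexarotene replicates 1 to 4, against 9.33, 29.9, 16.3 and 30.8 CPM in vehicle replicates 1 to 4. Replicates 2 and 4 of both groups were the high ones, by 1.88 on the log2 scale in bexarotene libraries (1.29 in vehicle libraries), and the treatment difference was -0.23 ± 0.60. Pparg, a receptor outside the set, had 0.718, 1.88, 0.716 and 2.09 CPM in bexarotene replicates 1 to 4, against 0.846, 3.29, 1.90 and 2.73 CPM in vehicle replicates 1 to 4, lowest in the same 3 libraries as Plin4. The 8 oligodendrocyte markers, none at 0, summed to 1930, 2509, 1555 and 2364 CPM under bexarotene and 1347, 2213, 1220 and 2723 CPM under vehicle, also higher in replicates 2 and 4, and their part in the Plin4 values was not tested. Differences over 2-fold between replicates 1 and 3 and replicates 2 and 4, the same way in both groups, were counted after seeing the data. They were found in 3 of the 34 genes. Cd36 was higher in replicates 1 and 3, which is 2.94% of the set against 1.69% of all genes. Plin4 and Cyp4a14 were lower in replicates 1 and 3, which is 5.88% of the set against 1.41% of all genes.

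Fabp7, the brain fatty acid binding protein of radial glia and astrocytes, had 25.9, 7.67, 23.8 and 7.71 CPM in bexarotene replicates 1 to 4, against 19.8, 8.89, 14.3 and 21.3 CPM in vehicle replicates 1 to 4. Its bexarotene libraries divided into 2 high and 2 low, and vehicle replicate 4 was high. The treatment difference was 0.02 ± 0.48 (adjusted p = 0.997), 0.56 within replicates 1 and 3 but -0.84 within replicates 2 and 4. The 10 astrocyte markers, none at 0, summed to 4191 to 4747 CPM in bexarotene libraries and 4037 to 5330 CPM in vehicle libraries, and the largest part of the sum was Slc1a2. Single markers varied differently: Aqp4, picked after its values were seen, had 123, 80.1, 108 and 85.1 CPM in bexarotene replicates 1 to 4, against 111, 71.1, 91.2 and 102 CPM in vehicle replicates 1 to 4, high in the same libraries as Fabp7. Slc1a2, Aldh1l1 and Fgfr3 of the same list went the other way in the bexarotene group, higher in replicates 2 and 4 than in replicates 1 and 3. There Slc1a2 had 1603, 2437, 1664 and 2294 CPM in replicates 1 to 4. The part of astrocytes in the Fabp7 values was not tested. Plin2, the droplet protein of most tissues, had 7.4, 5.84, 6.44 and 5.32 CPM under bexarotene and 4.70, 5.24, 4.93 and 6.26 CPM under vehicle, again overlapping through vehicle replicate 4. The estimated log2 difference amounted to 0.24 ± 0.16 (adjusted p = 0.721), and 0.34 without that library. Plin5, a droplet protein of oxidative tissue, was at a mean of 0.711 ± 0.239 CPM with bexarotene and 0.84 ± 0.364 CPM with vehicle, and Acsl1, which activates long chains to acyl-CoA, at 39.8 ± 2.95 CPM with bexarotene and 38.9 ± 3.38 CPM with vehicle (SD, n = 4).

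**Figure D4:**
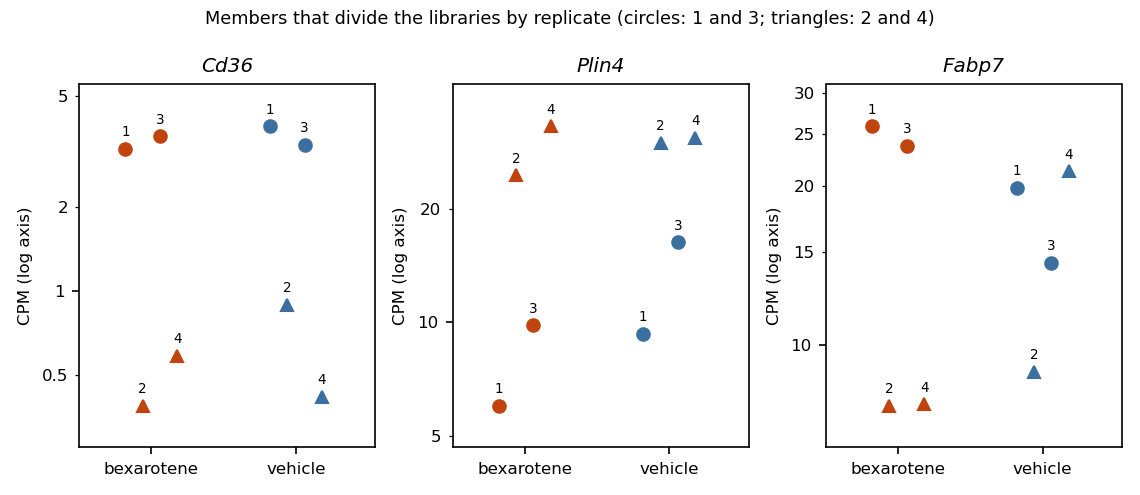
CPM on a log axis of Cd36, Plin4 and Fabp7 in each bexarotene and vehicle library, with the replicate number beside each point. Circles (replicates 1 and 3) and triangles (replicates 2 and 4) separate for Cd36 and Plin4 in both groups, and for Fabp7 in the bexarotene group only, where vehicle replicate 4 is at 21.3 CPM.

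Acot1 and Acot2, acyl-CoA thioesterases of the cytosol and of mitochondria, are near copies: their transcripts shared 94.3% of 1330 aligned bases, with an identical run of 273 bases, so reads can be split between them or dropped. Acot1 was at a mean of 6.89 ± 0.147 CPM with bexarotene and 6.57 ± 0.343 CPM with vehicle, and Acot2 at 7.33 ± 0.72 CPM with bexarotene and 8.41 ± 1.14 CPM with vehicle (SD, n = 4). Their log2 fold changes were 0.07 ± 0.11 and -0.20 ± 0.14, and these values are uncertain for that reason.

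The cytochrome P450 genes Cyp4a10 and Cyp4a14, fatty acid omega-hydroxylases and the classic PPARalpha targets of liver, had the highest log2 fold changes of the set and also wide errors. Cyp4a10 had 0.926, 2.22, 0.657 and 1.05 CPM in bexarotene replicates 1 to 4, against 0.0705, 1.52, 0.0717 and 0.888 CPM in vehicle replicates 1 to 4. Cyp4a14 and Ehhadh are given in full after their values were seen. In counts of Cyp4a10, vehicle replicates 1 and 3 held 3 and 4 reads, and every other library held 45 to 165. The fitted log2 fold change reached 0.92 ± 0.88 (adjusted p = 0.822, exact permutation p = 0.229). It was 0.46 without bexarotene replicate 2, 0.56 and 0.55 without vehicle replicates 1 and 3, 1.79 without vehicle replicate 2, and 1.60 with the replicate block (unadjusted p = 0.0336 in edgeR's test). Cyp4a14 had 65, 392, 58 and 119 reads in bexarotene replicates 1 to 4, against 0, 134, 18 and 94 in vehicle replicates 1 to 4, with a log2 fold change of 1.04 ± 1.08 (adjusted p = 0.844). In both genes only the contrast within replicates 1 and 3 was large, at 2.98 and 3.18, while within replicates 2 and 4 it was 0.39 and 0.60. Cyp4a10 shares 97.2% of 1530 aligned bases with Cyp4a32 and 95.7% of 2101 with Cyp4a31, so its counts may include reads of either.

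Liver transcripts moved with these P450 genes. The 8 liver markers, among them Alb, summed to 55.2, 128, 42.1 and 45.6 CPM in bexarotene replicates 1 to 4, against 0.893, 92.0, 5.22 and 123 CPM in vehicle replicates 1 to 4. All 8 had positive log2 fold changes, and 1, Ahsg, was at 0 in vehicle replicates 1 and 3. Vehicle replicates 1 and 3, the lowest for both P450 genes, were thus also the lowest for the liver list, and their part in the P450 values was not tested. Ehhadh, the peroxisomal bifunctional enzyme and a PPARalpha target, had 2.98, 3.39, 2.95 and 3.96 CPM under bexarotene and 1.27, 3.96, 2.46 and 5.04 CPM under vehicle, with the same 2 libraries lowest. As a log2 fold change this came to 0.06 ± 0.36. Hsdl2, a peroxisomal protein of the short-chain dehydrogenase family, was at a mean of 25.6 ± 3.11 CPM with bexarotene and 25.5 ± 1.38 CPM with vehicle (SD, n = 4).

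**Figure D5:**
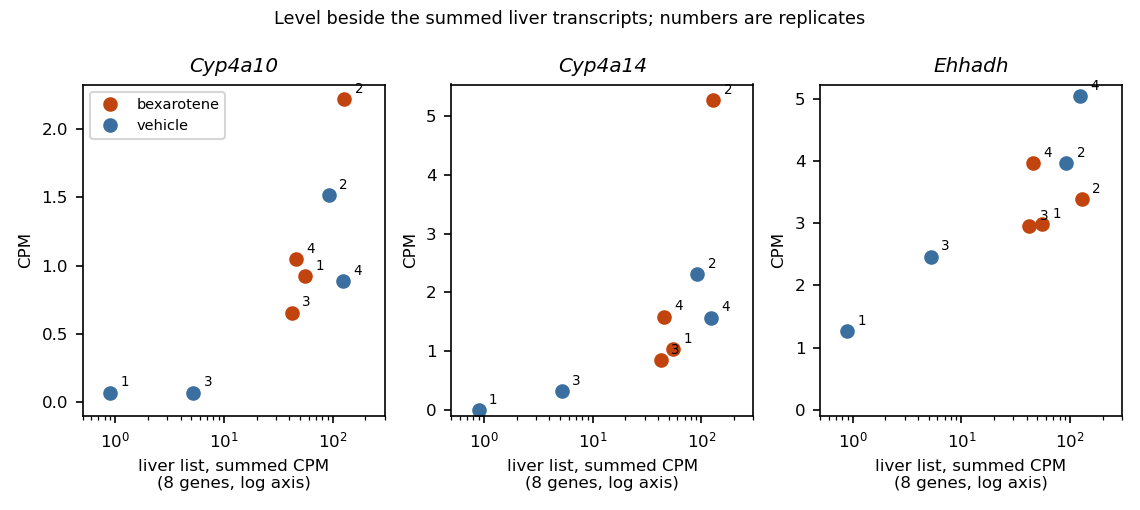
CPM of Cyp4a10, Cyp4a14 and Ehhadh (vertical axes) beside the summed CPM of 8 liver transcripts (horizontal log axis) in the 4 bexarotene and 4 vehicle libraries, numbered by replicate. Vehicle replicates 1 and 3, with liver sums of 0.893 and 5.22 CPM, are lowest in all 3 panels.

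Of 73 further genes of fatty acid handling that were not in the set, chosen by name, 67 were tested. None passed an adjusted p below 0.05 in edgeR's test or in DESeq2, an unadjusted p below 0.05 was reached by 3 that were higher and 2 that were lower, and 39 had a log2 fold change above 0 (58.2%), with a median of 0.04. These are 4.48% higher and 2.99% lower, near the 4.88% and 3.89% of all genes, and 50.2% of all genes were above 0. The 5 became 3 with the replicate block or the length and GC offset, 1 without bexarotene replicate 1, and 3 without bexarotene replicate 2, bexarotene replicate 3 or vehicle replicate 1. Hadh, the hydroxyacyl-CoA dehydrogenase for short and medium chains, had 24.8, 21.7, 23.5 and 20.3 CPM in bexarotene replicates 1 to 4, against 18.6, 15.0, 17.8 and 20.8 CPM in vehicle replicates 1 to 4. On the log2 scale the difference was 0.32 ± 0.12 (adjusted p = 0.506), and the groups overlapped through vehicle replicate 4 once more. Slc16a1, a transporter of lactate and ketone bodies, had a log2 fold change of 0.36 ± 0.14, and Pccb, a subunit of propionyl-CoA carboxylase, 0.15 ± 0.07. Bexarotene libraries lay above all vehicle libraries in Pccb and in Echs1, the enoyl-CoA hydratase, 2.99% of the 67 against 3.61% of all genes. Echs1 was picked after its values were seen. Acsl4, which activates arachidonic acid, had 43.1, 66.2, 54.1 and 56.9 CPM under bexarotene and 76.6, 59.2, 79.4 and 74.7 CPM under vehicle. In edgeR the log2 fold change stood at -0.40 ± 0.14 (adjusted p = 0.483), and -0.20 with the length and GC offset. Acot3, a peroxisomal thioesterase, was at -0.48 ± 0.21, Pdp2 and Pdp1, phosphatases that oppose the Pdk kinases, at -0.26 ± 0.15 and -0.20 ± 0.17, and Cpt1b, the muscle form of the outer carnitine enzyme, at 0.53 ± 0.43. Single libraries moved these values: Pdp1 was at -0.06 without vehicle replicate 2 and -0.33 without vehicle replicate 3, Pdp2 at -0.17 without vehicle replicate 2, and Cpt1b at 0.25 without vehicle replicate 4 and 0.86 without vehicle replicate 1. Acaa1b, a peroxisomal thiolase abundant in liver, had 1.71, 4.15, 1.58 and 1.91 CPM under bexarotene and 0.141, 3.17, 0.359 and 3.53 CPM under vehicle, lowest in the same libraries as the liver list.

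The receptors themselves showed no called difference: log2 fold changes were -0.23 ± 0.17 for Ppara, 0.07 ± 0.12 for Ppard, -0.70 ± 0.49 for Pparg, 0.02 ± 0.09 for Rxra, 0.00 ± 0.07 for Rxrb and 0.80 ± 0.77 for Rxrg (adjusted p of 0.746 to 0.998 in edgeR's test). Rxrg had 26.6, 5.15, 20.3 and 7.64 CPM in bexarotene replicates 1 to 4, against 16.1, 1.29, 8.82 and 8.19 CPM in vehicle replicates 1 to 4, higher in replicates 1 and 3 of both groups.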

How the data were processed

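Total RNA came from a Qiagen RNeasy extraction and went into a stranded TruSeq mRNA library kit, per the labels' protocols. The authors deposited raw read counts per RefSeq transcript (28644 rows, 22869 gene symbols), and the submitters' processing notes name mm9 and edgeR. Neither the aligner nor the counter, strand setting or annotation release is named in those sources, so opposite-strand overlaps cannot be resolved. Sample titles gave groups and replicate numbers, and 0 value columns were set aside.

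All 8 libraries entered 1 quasi-likelihood fit in edgeR 4.0.16 under R 4.3.3, with treatment as its single factor, TMM scaling, the standard expression filter and robust dispersion. P-values were adjusted by Benjamini-Hochberg across 21285 rows, with a threshold of 0.05. Library size for CPM is the sum over those rows times the TMM factor. Permutation tests were exact, on log2 CPM (prior count 2), and are not given for genes whose groups do not overlap, where 4 against 4 libraries fix the p at its smallest value, 0.0286. Alternatives were RLE scaling, no filter, DESeq2 1.42.0, a replicate block, 1 row per gene, an offset for transcript length and GC content (GENCODE M21, matched for 97.0% of rows), that offset plus the block, and every library left out once.

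To check the pairing, library deviations were correlated. Same-numbered libraries reached 0.496, 0.299, 0.245 and 0.323 (replicates 1 to 4), all over the set level of 0.1. The split of replicates 1 and 3 from 2 and 4 gives such values too. Bexarotene replicate 3 and vehicle replicate 1 reached 0.559, and bexarotene replicate 4 and vehicle replicate 2 reached 0.381. The check therefore cannot show that equal numbers are pairs, and the replicate block is given as an alternative only.

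The 34 genes, the further pathway genes and the marker lists were chosen with earlier results of these data known. The rule for genes in full took those with an unadjusted p below 0.05 or no overlap, 9 standard targets and the smallest p of each role, 17 in all. It took 9 further pathway genes, the 5 smallest p-values and the 4 highest and 4 lowest log2 fold changes at 1 CPM or more. Transcript identity, from the GENCODE sequences, was added after seeing the data.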

Additional observations from a re-analysis of the deposited data

Results flagged for a closer look

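In 6 of 52 combinations of gene and group, 1 library stood apart from the other 3 of its group by Dixon's ratio. Chance passes this level in about 1 of 20 such groups. The 52 cover the 17 genes of the set and the 9 further pathway genes that the rule took. Genes given in full only after their values were seen were not checked. Vehicle replicate 4 was the high one for Cpt1a, at 33.3 CPM against 22.4 to 22.8 CPM, for Cpt2, at 7.02 CPM against 5.13 to 5.31 CPM, and for Etfb, at 24 CPM against 16.8 to 17.8 CPM. Vehicle replicate 1 was the high one for Angptl4, at 8.51 CPM against 4.50 to 5.13 CPM, and the low one for Acaa2, at 13.4 CPM against 17.8 to 18.5 CPM. Bexarotene replicate 2 was the high one for Acaa1b, at 4.15 CPM against 1.58 to 1.91 CPM, and it also had the highest liver sum, 128 CPM.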

How the results depend on the processing

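No gene of the set was called under any of the 15 alternatives, and their median log2 fold change stayed between 0.07 and 0.18. Over all genes, DESeq2 called 89 and the fits without 1 library called 1 to 2, against 1. The number of members without overlap was 5 to 9 with 1 library left out, against 5. All of these were higher under bexarotene, as were 3.99% to 6.56% of all genes with 1 library left out, against 3.61%. The fit with the replicate block called 0 of the set and 1 gene in all, and gave 6 members higher and 2 lower at an unadjusted p below 0.05, against 6 and 0, while this background went to 10.3% of all genes, against 8.77%. With 1 library left out, 4 to 7 members were higher and 0 to 1 lower at that level. The background in those fits was 2.67% to 5.73% of all genes higher and 1.88% to 4.91% lower. Signs of log2 fold changes near 0 depended on single libraries: with 1 left out, Fabp7 ranged from -0.30 to 0.26, Cd36 from -0.61 to 0.33, Angptl4 from -0.07 to 0.28, Ucp2 from -0.03 to 0.22 and Acaa1b from -0.06 to 0.92. Fabp7 was at -0.12 with the replicate block, -0.06 with the length and GC offset and -0.18 with both, and Cd36 at 0.04 with the offset. The cause was not tested. Depth limits Vnn1, with 0 to 22 counts a library, and Cyp4a10, with 3 and 4 counts in vehicle replicates 1 and 3. Protein identity was planned and not run.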

Other observations

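The extremes of the 34 genes fell unevenly over the libraries. Bexarotene replicate 1 held the highest of the 8 values in 14 genes (41.2%), against 15.1% of all genes, and vehicle replicates 1 and 2 held the lowest in 11 and 9, 32.4% and 26.5%, against 16.5% and 17.1% of all genes. Vehicle replicate 4 was the highest vehicle library in 13 of the 34 genes, against 24.2% of all genes. These counts were added after seeing the data, and no test was made of them.

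Levels per kilobase of transcript, as the mean over 8 libraries, spanned a wide range in the set. Ech1, Etfb and Fabp7 had 27.0, 23.7 and 20.1 CPM per kilobase, and Vnn1, Plin5 and Cyp4a10 had 0.076, 0.39 and 0.439 CPM per kilobase.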
